A study of Mus musculus with 34 samples.

Results

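Replication-dependent histone genes encode the core histones H2A, H2B, H3 and H4 and the linker histone H1 that package newly made DNA, and their transcripts were followed here in stimulated mouse T cells. Members were the protein-coding genes whose GENCODE M21 symbol begins with Hist1h, Hist2h, Hist3h or Hist4h and whose mean over all libraries was at least 0.5 CPM (counts scaled to a common library size). This rule gave 61 of the 48526 genes counted: 5 H1, 16 H2A, 15 H2B, 12 H3 and 13 H4 genes, 48 of them on chromosome 13. Of 67 such symbols, 4 fell below the minimum and 2 had no entry. Hist1h2bq at a mean of 0.506 CPM and Hist2h3c1 at 1.05 CPM lay just inside, and Hist1h1t at 0.427 CPM and Hist1h2ao at 0.314 CPM just outside. Reads of near-identical copies are shared out by estimation, and 90.07% of member values carried decimals, against 11.44% of all values, so the sum over each class was the main quantity and single genes are uncertain.

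The study sequenced ribosome-depleted total RNA of splenic pan T cells from C57BL/6 mice aged 6-12 weeks, in 34 libraries and 13 groups. Cells were activated with antibodies to CD3, a chain set of the antigen receptor, and to CD28, its costimulatory partner, plus recombinant IL-2. Ars2 KO, CD28 DKI (labelled DKI), CD28 AYAA and CD28 Y170F each had 3 libraries after 24 h (day 1) and 3 after 72 h (day 3), CD28 KO and WT each had 2 per day, and unstimulated WT cells (day 0) had 2. The labels give neither the Cre line of the Ars2 KO nor the changes carried by DKI; AYAA and Y170F name changes in a proline motif and a tyrosine of the CD28 tail. Replicates are called biological in the design text. The p-values and intervals rest on a spread pooled over all 13 groups, so they do not measure the spread within the groups compared. The 2 WT libraries of day 1 differ by 1.19 to 1.37 in their class sums (log2). Class sums over WT at that day carry standard errors of 0.20 to 0.29, so these intervals may be too narrow.

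Histone messages are the only metazoan mRNAs known to end in a short hairpin instead of a poly(A) tail. Stem-loop binding protein (SLBP) holds the hairpin, and the U7 small nuclear ribonucleoprotein guides the cut just after it, so the message is made in S phase and lost when replication stops. ARS2, encoded by Srrt, links the nuclear cap-binding complex to RNA-processing factors, and its loss in human and mouse cell lines has been reported to impair this cut. The libraries were primed at random on total RNA, so transcripts with and without a poly(A) tail are counted together and cannot be told apart in these gene counts.

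The hairpin was looked for in the gene models, because a model that runs past it counts read-through as well. The pattern was GG, 4 bases, TT, 6 bases and CC, on the transcript strand, with at least 5 of 6 stem pairs and within 100 bases of the stop codon. It was found in 42 of 51 member transcripts with enough sequence past the stop (82.4%), against 51 of 44292 transcripts of other protein-coding genes (0.115%). By gene, 40 of 61 members had it, at a median of 32.5 bases from the stop codon (range 22 to 59), and of the 21 without it 13 had models that end within 15 bases of the stop codon. The 40 members held 6 forms, and 23 of them shared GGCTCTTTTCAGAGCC. The lines below show the forms in members that the results turn on or that carry a rarer stem, with the hairpin in capitals, read from GENCODE M21 transcripts (GRCm38):
Hist1h2bf: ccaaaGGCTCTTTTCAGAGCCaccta
Hist1h2ad: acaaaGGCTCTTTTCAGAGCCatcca
Hist1h3d: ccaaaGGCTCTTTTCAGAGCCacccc
Hist1h4i: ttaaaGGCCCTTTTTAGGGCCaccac
Hist1h4d: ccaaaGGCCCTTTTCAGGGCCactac
Hist1h4b: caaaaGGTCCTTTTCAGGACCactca
Hist1h2bb: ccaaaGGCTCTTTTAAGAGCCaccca
Hist2h2ac: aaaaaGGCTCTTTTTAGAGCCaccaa
The hairpin of Hist1h2bf lies at chr13:23573765-23573780 (minus strand), with 29 bases of the model beyond it. That of Hist1h4i lies at chr13:22040966-22040981 (minus strand), and its model runs on for 330 bases. The form of Hist1h4d was found in 7 members and that of Hist1h4i in 2, all H4 genes. The model of Hist2h2be held no match.

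RefSeq promoters (GRCm38.p6, 250 bases before to 50 after the start) matched 55 members. On either strand, CCAAT stood in 46 of 55 (83.6%), against 37.41% of all 32851 promoters, and the split was by class: all 43 promoters of H1, H2A, H2B and H3 genes held it and 3 of 12 of H4 genes did. TATAAA stood in 32 (58.2%, against 13.62%) and the octamer ATTTGCAT in 10 (18.2%, against 1.74%), which were 6 H2A and 4 H2B genes. The H1 box AAACACA stood in 3 of 4 H1 promoters and in 4 of all 55, against 7.18% of all promoters. The promoter of Hist1h2bf is printed because the gene and its divergent neighbour Hist1h2ad, 184 bases away, stood out side by side below. It lies at chr13:23574158-23574457, minus strand, with CCAAT and TATAAA in capitals on either strand:
Hist1h2bf promoter: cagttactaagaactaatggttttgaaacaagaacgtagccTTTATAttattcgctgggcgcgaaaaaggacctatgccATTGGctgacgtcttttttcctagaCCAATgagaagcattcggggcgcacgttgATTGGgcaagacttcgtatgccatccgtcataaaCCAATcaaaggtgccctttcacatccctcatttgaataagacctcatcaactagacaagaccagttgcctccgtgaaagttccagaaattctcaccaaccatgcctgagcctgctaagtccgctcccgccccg
The stretch is shared, since the promoter of Hist1h2ad runs over chr13:23574131-23574430 on the plus strand. The promoter of Hist1h4i, in contrast, held TATAAA and no CCAAT.

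Library totals ran from 8.35 to 47.76 M counts, and 8 libraries (the 6 of DKI and WT number 4 at both days) lay under 12 M. All 10 T cell markers were above 0 in every library. Srrt had 33.81, 64.75 and 33.48 CPM at day 1 where Ars2 was knocked out, against 244.3 and 130.6 CPM in WT libraries, and 107.5, 145.8 and 105.4 CPM at day 3, against 245.2 and 145.1 CPM. The log2 fold change was -2.09 at day 1 (edgeR quasi-likelihood test, Benjamini-Hochberg adjusted p = 1.9e-05) and -0.71 at day 3 (adjusted p = 0.0419), so Srrt was less reduced in the day 3 libraries. Cd28 had 481.4 and 476.0 CPM in day 1 libraries labelled CD28 KO, against 386.6 and 410.9 CPM in WT libraries, and 211.8 and 213.5 CPM at day 3, against 474.0 and 586.9 CPM. It was thus not lower than in WT at day 1; the labels do not say which part of the gene is deleted, counts per gene include any exons that remain, and the genotype is called here by its label.

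In WT cells no histone class sum passed the adjusted threshold at day 1 against unstimulated cells, and all 5 were higher at day 3. All members together summed to 3477 and 3703 CPM at day 0, to 6407 and 2646 CPM at day 1 and to 17180 and 15610 CPM at day 3. The day 0 and day 1 ranges overlap because the 2 day 1 libraries differ: WT number 4 lay below both unstimulated libraries and WT number 1 above both. Against day 0, the class sums at day 1 differed by 0.22 (H1) to 0.54 (H4) on the log2 scale and none passed the test, although the 95% interval of H4 (0.033 to 1.041, adjusted p = 0.0832) lay above 0. At day 3 they were higher by 2.07 (H1) to 2.32 (H2B), and all 5 passed. Single members moved in both directions at day 1: 16 of 61 rose (26.2%), a share near the 24.2% of all genes that did. Another 5 fell (8.2%), where 27.2% of all genes did. The number of calls went up or down with the library left out, and the share of all genes called in those fits is not given. Without WT number 1 at day 1 every class sum lay below day 0 (-0.297 to -0.66). At day 3, 59 rose and 0 fell against day 0 (23.5% of all genes rose and 27.0% fell), and their median change was 2.18 (log2), against -0.073 over all genes.

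The 5 that fell at day 1 include 3 adjacent genes of chromosome 13. Hist1h2bf, an H2B gene, had 6.12 and 5.25 CPM at day 1, against 18.97 and 22.03 CPM in unstimulated cells, with a log2 change of -1.83 by edgeR (SE 0.28, adjusted p = 5.82e-06). Its chromosome 13 neighbours Hist1h2ad (H2A) and Hist1h3d (H3) changed by -0.87 and -1.30, and Hist3h2ba (H2B, chromosome 11) by -1.78. Hist2h2be, an H2B gene of chromosome 3 known in mouse as a variant enriched in olfactory neurons, had 3.997 and 6.357 CPM, against 14.0 and 12.3 CPM, a change of -1.39 (adjusted p = 0.000963). All the libraries of both groups are separated for these H2B genes. The highest rises were those of Hist2h3c2 (H3, 1.79), Hist1h4a (H4, 1.56) and Hist2h2aa1 (H2A, 1.51). The last is uncertain: Hist2h2aa1 averaged 144.6 CPM at day 1, against 51.14 CPM at day 0, while its near-identical copy Hist2h2aa2 averaged 128.7 CPM, against 167.7 CPM, and counting can split reads between them. B cell markers summed to 873.1 and 882.1 CPM in the unstimulated libraries, against 4.9 to 98.8 CPM in all others, and myeloid and erythroid markers were also highest there. The part of these markers in the differences from day 0 was not tested.

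**Figure D1:**
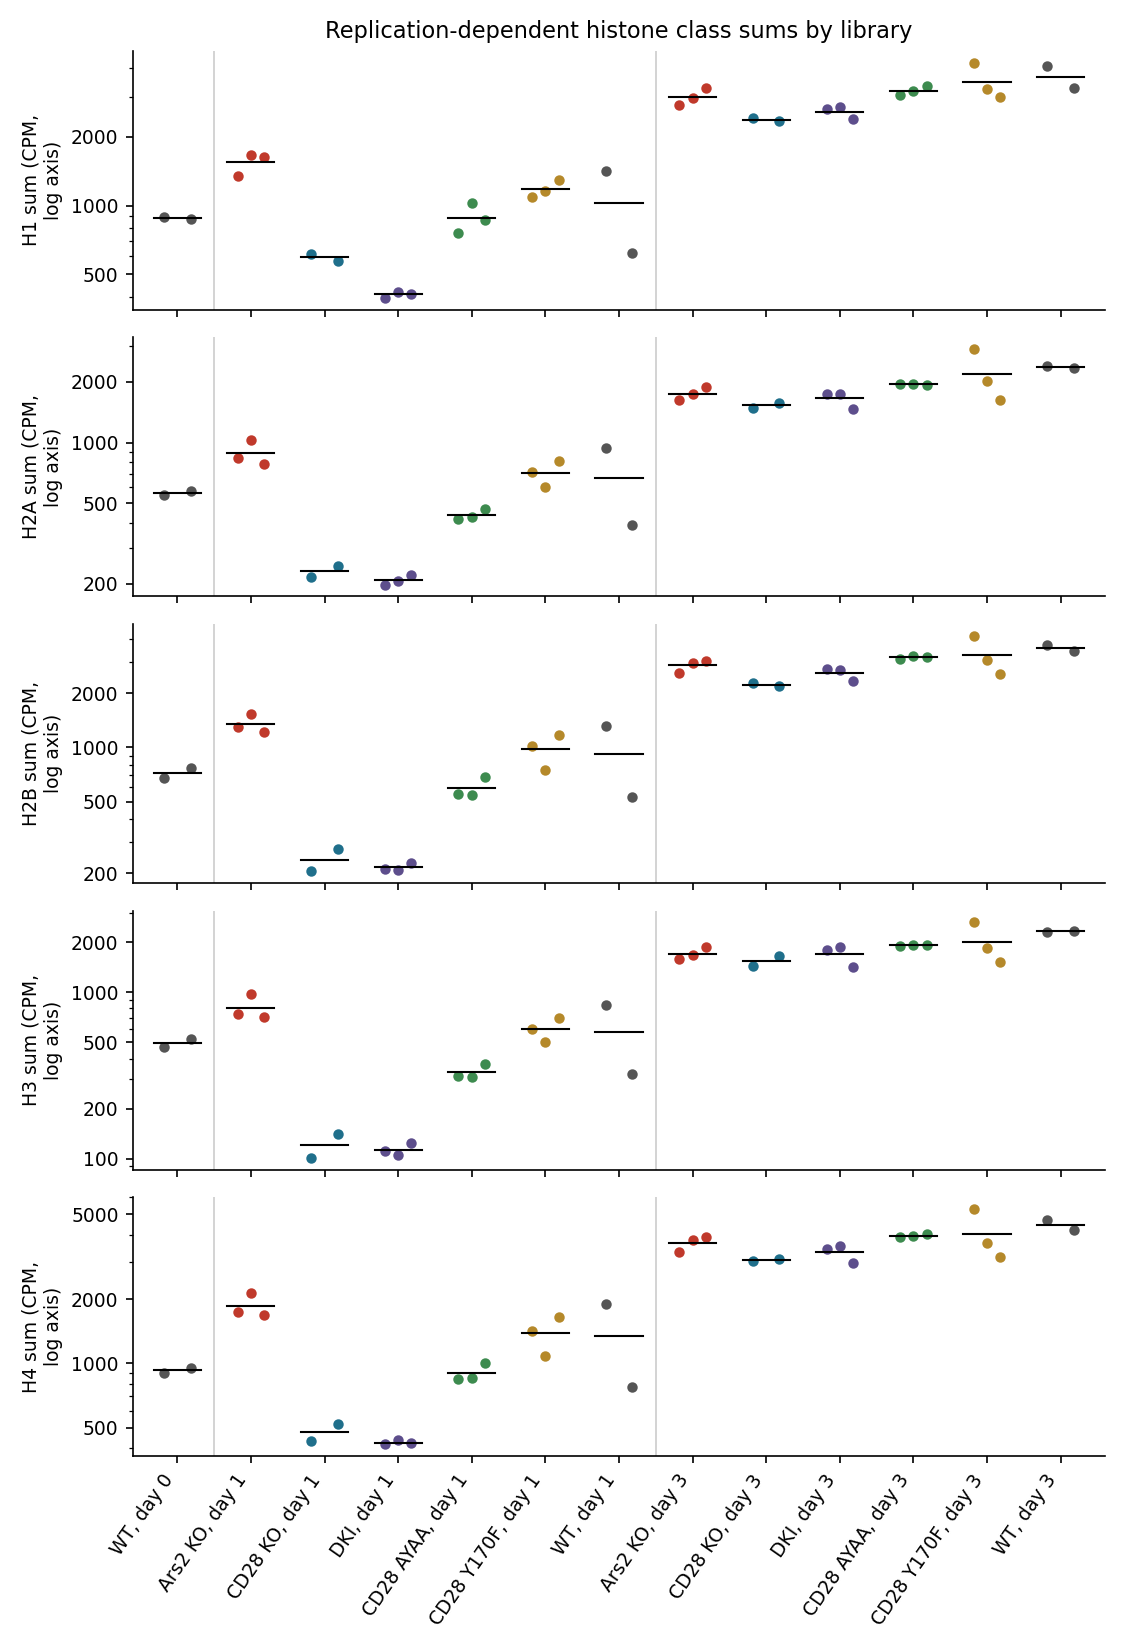
Summed CPM of the H1, H2A, H2B, H3 and H4 members (log axes) in each library (points) with group means (bars), for unstimulated WT, then day 1, then day 3. In every class the CD28 KO and DKI libraries are lowest at day 1, the 2 WT libraries of day 1 stand apart, and every group is higher at day 3 than at day 1.

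At day 1, histone class sums were higher in Ars2 KO cells than in WT cells by amounts that did not pass the test. All members summed to 5967, 7343 and 6023 CPM in Ars2 KO libraries, against 6407 CPM in WT number 1 and 2646 CPM in WT number 4. WT number 1 therefore lay inside the Ars2 KO range and WT number 4 far below it. On the log2 scale the sums differed by 0.57 for H1 (95% interval 0.17 to 0.98), 0.38 for H2A, 0.53 for H2B (0.049 to 1.001), 0.45 for H3 and 0.44 for H4, with adjusted p from 0.288 to 0.601. Against WT number 1 alone they differed by 0.13, -0.09, 0.04, -0.05 and -0.03 and none passed. Against WT number 4 alone they differed by 1.33, 1.19, 1.37, 1.33 and 1.27 and all passed. The class sums of WT number 4 were lower than those of WT number 1 at the same day by 1.19 to 1.37 on the log2 scale, so the choice of WT library decides this comparison.

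**Figure D2:**
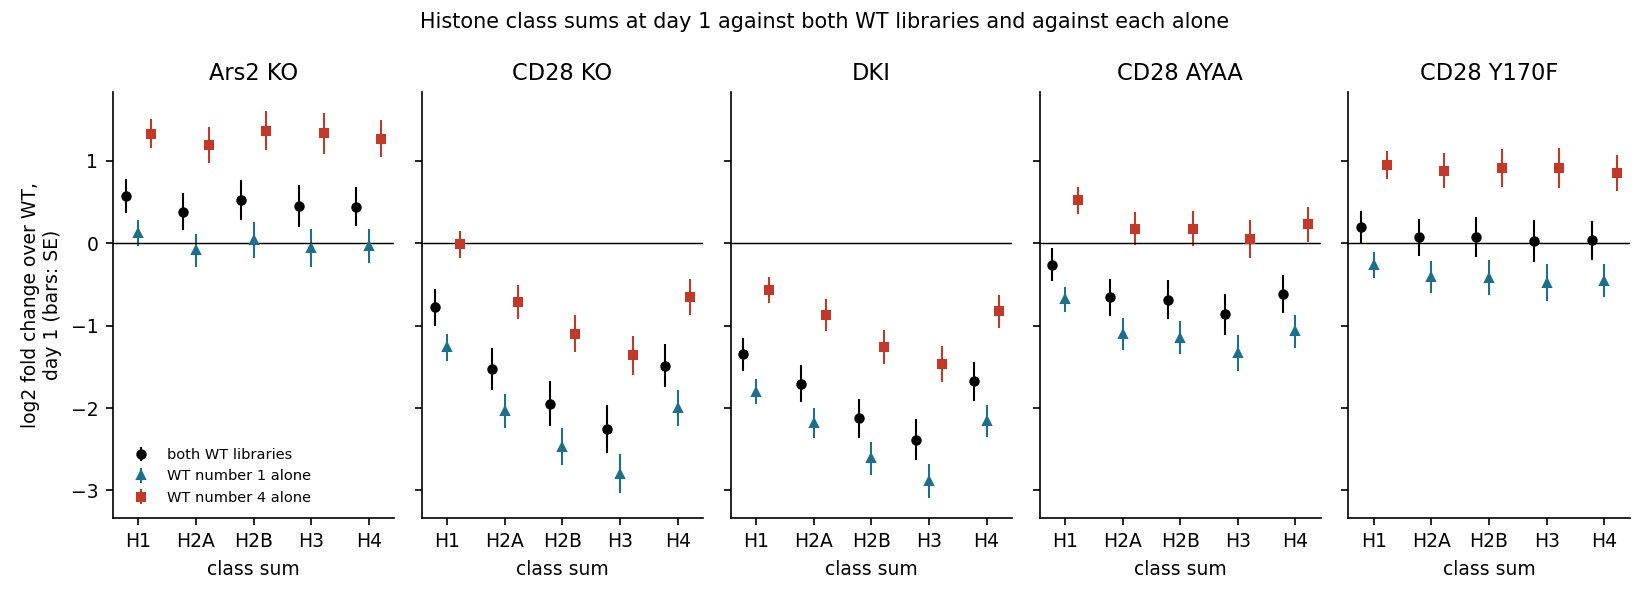
Log2 fold change of each class sum over WT at day 1 (bars, SE), for the 5 other genotypes (panels), against both WT libraries (circles), WT number 1 alone (triangles) and WT number 4 alone (squares). Ars2 KO sums lie near 0 against WT number 1 and above 1 against WT number 4, while DKI sums, and those labelled CD28 KO other than H1, lie well below 0 in all 3 versions.

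CD28 Y170F cells, with 3 libraries a day and none under 12 M counts, gave a further comparison for Ars2 KO cells. In CD28 Y170F libraries at day 1 all members summed to 4839, 4098 and 5632 CPM, so each lay below the 3 Ars2 KO libraries. Ars2 KO sums were higher by 0.38 for H1 (95% interval 0.03 to 0.74), 0.31 for H2A (-0.09 to 0.71), 0.45 for H2B (0.03 to 0.87), 0.42 for H3 (-0.02 to 0.86) and 0.41 for H4 (0.00 to 0.82). None passed, with adjusted p from 0.361 to 0.57. The groups overlapped in H2A and not in the other classes. The share of all genes without overlap is not given, and most members follow the summed level across groups. The classes are therefore not separate results. Both comparisons rest on the same 3 Ars2 KO libraries. Myeloid markers summed to 21.42, 29.06 and 13.05 CPM in those libraries, with no overlap with either other group. The sums were 7.995 and 6.542 CPM in WT libraries of day 1 and 8.869, 6.331 and 7.279 CPM in CD28 Y170F libraries. Sums of T cell, B cell, erythroid and NK cell markers overlapped with both groups. Their part in the histone differences at day 1, single genes included, was not tested.

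Among single genes, a few differed more than their class. Against WT at day 1, 3 members rose and 0 fell, where 0.23% of all genes rose and 0.169% fell; the median over all 61 was 0.47, against 0.009 over all genes. Against CD28 Y170F, 4 rose and 0 fell, where 1.03% of all genes rose and 0.503% fell, with a median of 0.42. Hist1h4i, Hist1h2bf and Hist2h2be were called in both, and Hist1h2ad against CD28 Y170F. Against WT number 1 alone 0 of the 61 were higher (0.0893% of all genes were), and against WT number 4 alone 43 were (0.951% of all genes).

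Hist1h4i (ENSMUSG00000060639.5), an H4 gene at chr13:22040636-22041362, was the most even of these. It had 30.8, 33.3 and 29.9 CPM in Ars2 KO libraries, against 12.6, 11.3 and 16.3 CPM in CD28 Y170F libraries and 15.8 and 9.40 CPM in WT libraries. Every Ars2 KO library lay above every other library of day 1. The log2 fold change was 1.22 over CD28 Y170F (SE 0.17, adjusted p = 0.000125) and 1.28 over WT (SE 0.19, adjusted p = 0.0012). That is 0.81 more than the H4 sum over CD28 Y170F. Against WT number 1 alone it was 0.99 and missed the threshold (adjusted p = 0.0631), and its adjusted p over WT ranged up to 0.47 over the alternatives.

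Hist1h2bf (ENSMUSG00000069268.4, chr13:23573736-23574196) had 16.5, 20.8 and 10.9 CPM in Ars2 KO libraries, against 7.11, 3.19 and 6.75 CPM in CD28 Y170F libraries and 6.12 and 5.25 CPM in WT libraries. The lowest Ars2 KO value exceeded the highest of both other groups. The log2 fold change was 1.49 over CD28 Y170F (SE 0.22, adjusted p = 0.000427) and 1.48 over WT (SE 0.26, adjusted p = 0.0065), and 1.40 over WT number 1 alone (adjusted p = 0.101). Unstimulated WT cells held 18.97 and 22.03 CPM, a range that overlaps with that of the Ars2 KO libraries. Hist1h2ad (ENSMUSG00000071478.5) had 20.2, 18.8 and 13.7 CPM in Ars2 KO libraries, against 11.1, 5.27 and 10.0 CPM in CD28 Y170F libraries and 10.9 and 8.38 CPM in WT libraries, with no overlap. Its log2 fold change was 0.99 over CD28 Y170F (SE 0.24, adjusted p = 0.03) and 0.85 over WT (adjusted p = 0.229), and the call over CD28 Y170F was lost without any 1 of 4 of the 6 libraries (adjusted p from 0.053 to 0.211). The next gene along, Hist1h3d, 810 bases on, had 24.2, 28.6 and 19.1 CPM in Ars2 KO libraries, against 17.0, 10.2 and 15.1 CPM in CD28 Y170F libraries, a difference of 0.77 that did not pass (adjusted p = 0.0965).

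**Figure D3:**
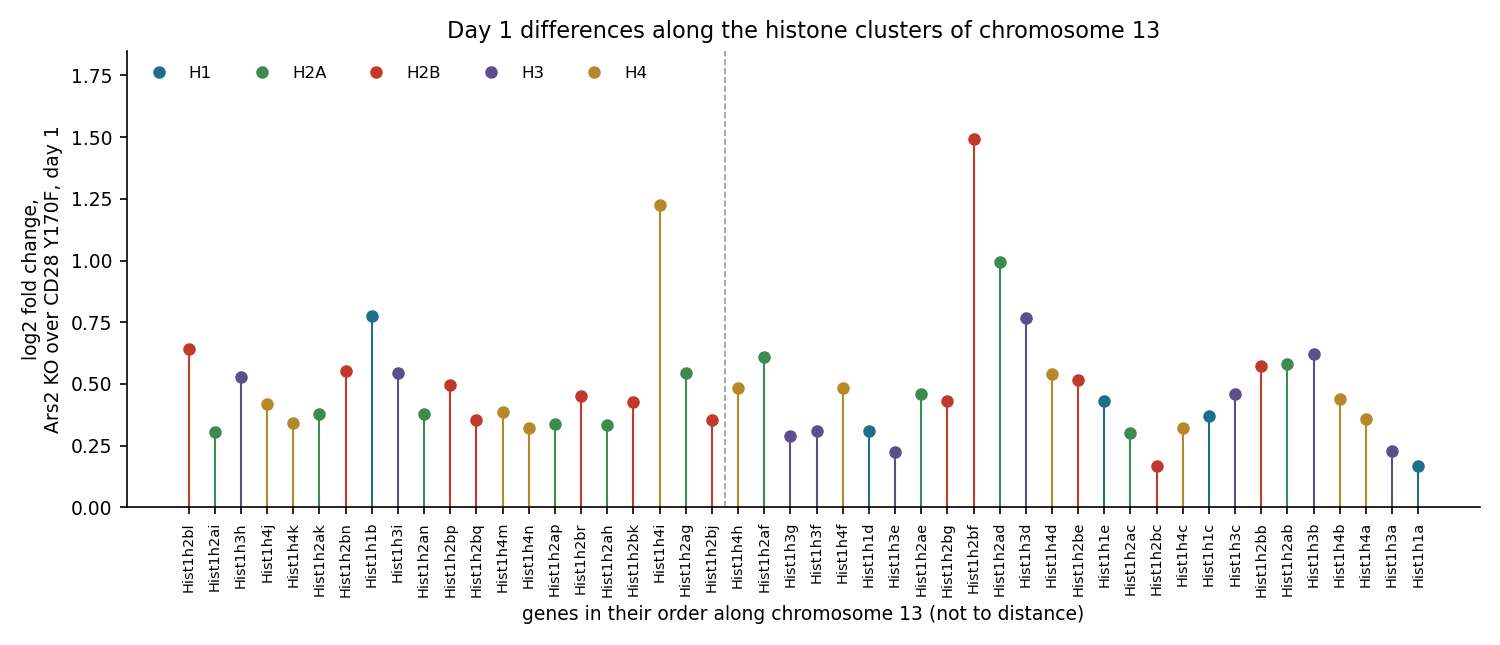
Log2 fold change of Ars2 KO over CD28 Y170F at day 1 for the 48 histone genes of chromosome 13, in genomic order and coloured by class; the dashed line marks the widest gap. All 48 lie above 0, Hist1h4i at 1.22 stands alone, and Hist1h2bf, Hist1h2ad and Hist1h3d lie in adjacent places at 1.49, 0.99 and 0.77.

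Hist2h2be (ENSMUSG00000068854.7, chr3:96221119-96223738) behaved unlike the rest of the family. At day 1 it had 16.7, 11.3 and 10.4 CPM in Ars2 KO libraries, against 5.71, 4.46 and 4.24 CPM in CD28 Y170F libraries and 3.997 and 6.357 CPM in WT libraries. At day 3 it had 18.5, 10.995 and 24.2 CPM in Ars2 KO libraries, against 5.94, 12.5 and 11.3 CPM in CD28 Y170F libraries and 6.41 and 10.7 CPM in WT libraries. The groups were apart at day 1, and at day 3 they were apart from WT and overlapped with CD28 Y170F. Over CD28 Y170F the log2 fold change was 1.41 at day 1 (SE 0.26, adjusted p = 0.00361) and 0.85 at day 3 (adjusted p = 0.0122). Over WT it was 1.35 at day 1 (SE 0.31, adjusted p = 0.0477) and 1.10 at day 3 (SE 0.30, adjusted p = 0.016), and the day 1 call was lost without any 1 of 4 of the 5 libraries (adjusted p up to 0.338). The day 3 call over WT was lost without Ars2 KO number 3 or WT number 1, and that over CD28 Y170F without Ars2 KO number 3 or CD28 Y170F number 1. The human counterparts of Hist2h2be, Hist1h1c and Hist1h2bc have been reported to make polyadenylated forms in differentiated cells. Of the other 2, Hist1h1c differed from WT by 0.68 (adjusted p = 0.0656) and Hist1h2bc by 0.18 (adjusted p = 0.88).

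**Figure D4:**
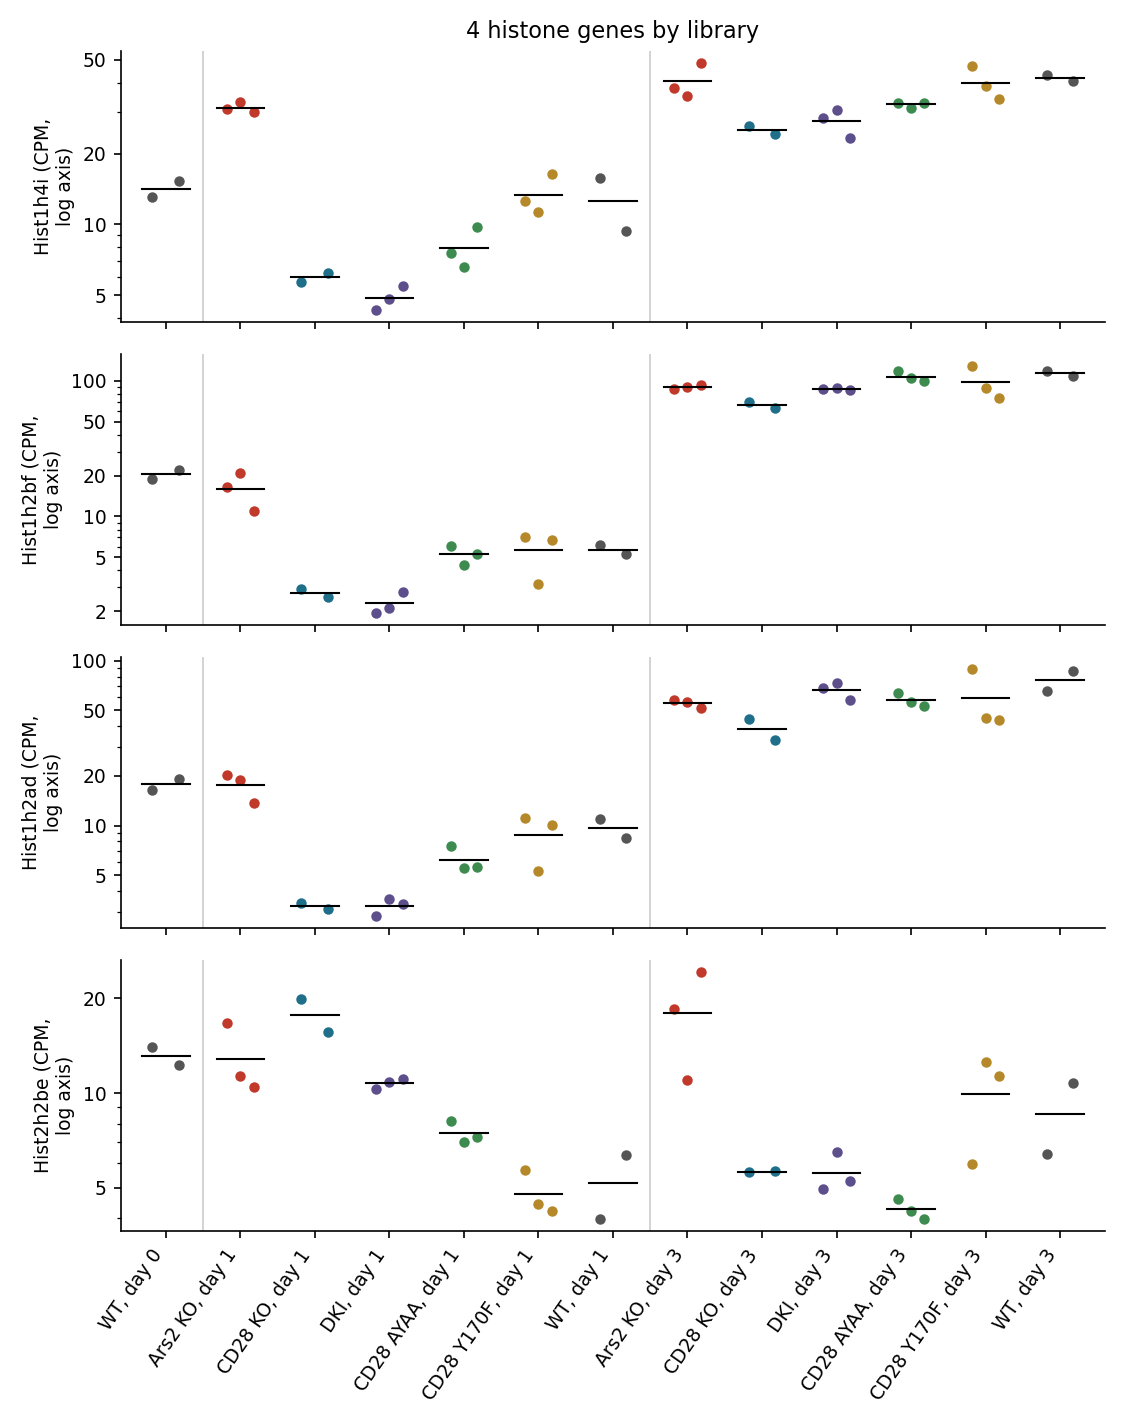
CPM of Hist1h4i, Hist1h2bf, Hist1h2ad and Hist2h2be (log axes) in every library (points) with group means (bars). At day 1 the Ars2 KO points of the first 3 genes lie above all other stimulated groups, whereas Hist2h2be in cells labelled CD28 KO, in DKI and in unstimulated WT cells overlaps with the Ars2 KO range.

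Members were also split by what their gene model holds, as a description with no test. Over CD28 Y170F at day 1 the median log2 fold change was 0.45 in the 20 members whose model ends under 100 bases past the hairpin, 0.35 in the 20 whose model runs further and 0.38 in the 21 with no hairpin in the model. Over WT the medians were 0.50, 0.45 and 0.47. These counts per gene hold no position within the gene, so a change of the 3' end itself was not measured.

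**Figure D5:**
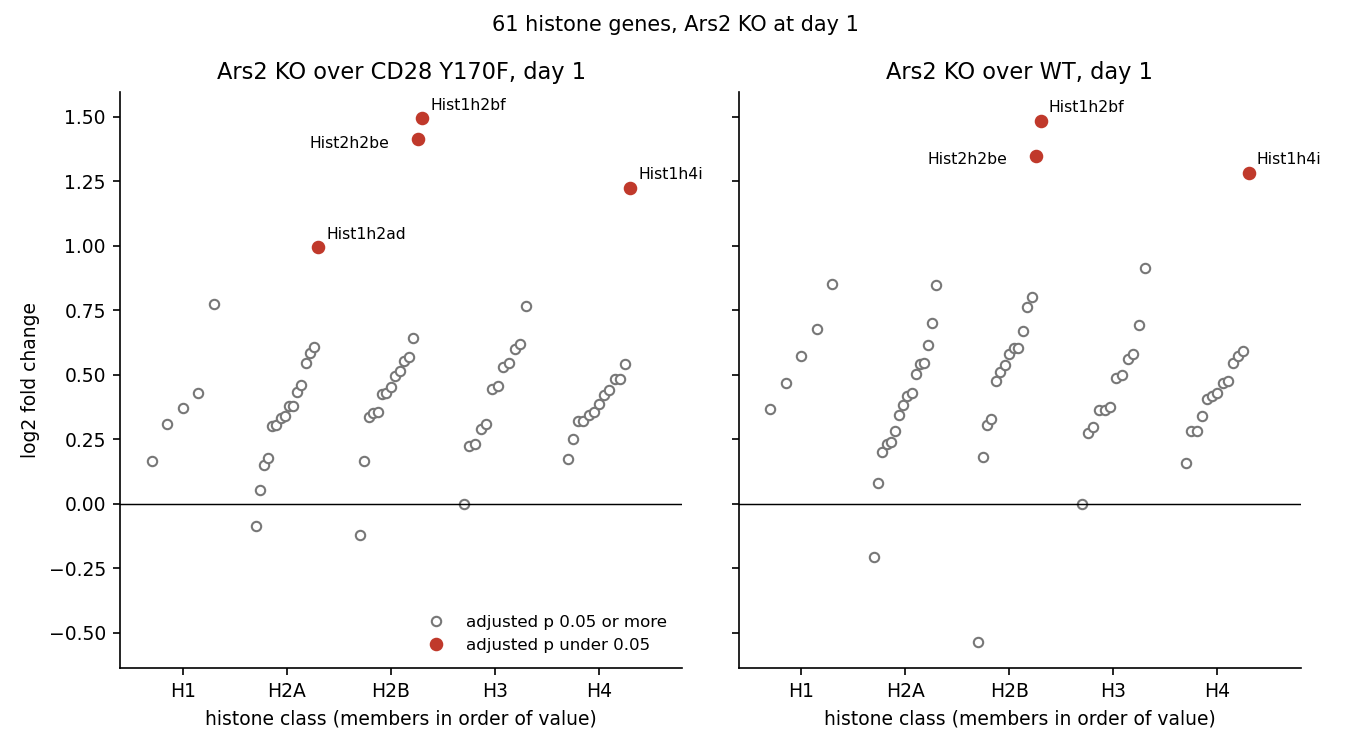
Log2 fold change of the 61 members in Ars2 KO over CD28 Y170F (left) and over WT (right) at day 1, by class, with members past an adjusted p of 0.05 filled. The members centre on 0.42 (left) and 0.47 (right) and the called genes lie at 0.99 and above; the open point at 0 among H3 genes is Hist2h3c1, which had 0 counts in these groups.

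At day 3 the Ars2 KO class sums lay below those of WT, and none passed the adjusted threshold. All members summed to 11890, 13120 and 13920 CPM in Ars2 KO libraries, against 17180 and 15610 CPM in WT libraries, with no overlap. The sums differed by -0.31 (H1), -0.46 (H2A), -0.33 (H2B), -0.46 (H3) and -0.29 (H4) on the log2 scale, with adjusted p from 0.189 to 0.453. The approximate 95% interval of H2A (-0.897 to -0.02) lay just below 0, but its unadjusted p by the edgeR test was 0.0509. With depth as a term, H1 (-0.68, adjusted p = 0.0153) and H2A (-0.80, adjusted p = 0.029) passed, and 12 members were lower and 1 higher. Every DKI library lay under 12 M counts, so that term rests on WT number 4 against number 1 over both days. Their log2 gap was -1.28 at day 1 and -0.14 at day 3. The member median was -0.751 with the term, against -0.418 over WT number 1 alone and -0.326 over WT number 4 alone. The share of all genes called is not given, and no conclusion on day 3 is drawn from this fit. Cell type markers moved in the main fit of Ars2 KO against WT at day 3: 6 of 10 T cell markers fell (median -0.401), and 3 of 10 myeloid (median 1.95) and 2 of 8 NK cell markers (median 1.251) rose. Myeloid markers summed to 13.48 to 24.66 CPM in Ars2 KO libraries, against 6.926 and 8.344 CPM in WT libraries, and T cell markers to 2363 to 2463 CPM, against 3069 and 3059 CPM; their part in the histone difference was not tested. The members had a median of -0.36, and Hist2h2be was the 1 gene called; 6.6% of all genes rose and 6.27% fell in that comparison. Over CD28 Y170F, whose libraries ranged from 11870 to 19240 CPM, the groups overlapped in every class. There, Hist2h2be rose and Hist3h2ba (-1.03, adjusted p = 0.00799) and Hist3h2a (-0.64, adjusted p = 0.0293), adjacent genes for H2B and H2A on chromosome 11, fell, where 15.4% of all genes rose and 13.8% fell. The calls of both chromosome 11 genes were lost without Ars2 KO number 1 or number 2 (adjusted p from 0.0517 to 0.121), and that of Hist3h2a also without CD28 Y170F number 1 (adjusted p = 0.22). Here 8 of 10 T cell and 5 of 10 B cell markers fell and 5 of 10 myeloid and 5 of 8 NK cell markers rose and 1 NK cell marker fell, and their part was not tested.

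Between the days, 4 members changed differently in Ars2 KO and WT cells. At day 3 against day 1, 57 members rose in Ars2 KO cells (13.3% of all genes did) with a median of 1.04, and 57 rose in WT cells (15.5% of all genes did) with a median of 1.88. The test of the difference between these changes called 0 members higher and 4 lower, where 1.91% and 1.77% of all genes were: Hist1h2bf by -1.83 (adjusted p = 0.00541), Hist1h4i by -1.33 (adjusted p = 0.00812), Hist1h1c by -1.02 (adjusted p = 0.0154) and Hist1h2ad by -1.31 (adjusted p = 0.0484). For Hist1h4i the levels were 38.1, 35.0 and 48.5 CPM at day 3, against 30.8, 33.3 and 29.9 CPM at day 1, in Ars2 KO cells, and 43.0 and 40.8 CPM against 15.8 and 9.40 CPM in WT cells. No class sum passed this test (-0.74 to -0.90, adjusted p from 0.0831 to 0.224). It depended on the WT library too, with 0 members called lower against WT number 1 alone (0.221% of all genes were) and 43 against WT number 4 alone (1.23%).

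Cells labelled CD28 KO and DKI had the lowest histone transcript levels of the series at day 1. All members summed to 1570 and 1745 CPM in libraries labelled CD28 KO and to 1330, 1375 and 1406 CPM in DKI libraries, against 6407 and 2646 CPM in WT libraries at day 1. Every one of these 5 libraries lay below both stimulated and both unstimulated WT libraries. In bulk RNA, fewer cells in S phase and less histone RNA per cell cannot be told apart. In cells labelled CD28 KO 1 member rose and 55 fell, where 18.6% of all genes rose and 24.7% fell, with a median of -2.03, against 0.016 over all genes. In DKI cells 1 rose and 57 fell, where 10.3% rose and 15.8% fell, with a median of -2.20. In cells labelled CD28 KO 5 of 10 B cell markers (median 2.319), 1 of 10 myeloid and 1 of 8 NK cell markers were higher and 1 of 10 T cell markers lower, and B cell markers summed to 94.02 and 66.28 CPM, against 20.6 and 6.634 CPM in WT libraries; in DKI cells 5 of 10 T cell and 1 of 8 NK cell markers were higher and 0 of 10 B cell markers were called. Their part in the histone differences was not tested. The class sums differed by -0.78 (H1), -1.53 (H2A), -1.95 (H2B), -2.26 (H3) and -1.49 (H4) in cells labelled CD28 KO and by -1.35, -1.71, -2.13, -2.38 and -1.68 in DKI cells, and all passed (adjusted p of 0.00639 or less). Against WT number 4 alone, which for DKI is the WT library of like depth, they were -0.02 to -1.36 in cells labelled CD28 KO, all called but H1 (adjusted p = 0.979), and -0.57 to -1.47 in DKI cells, all called.

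The fall was uneven within classes. The linker histone gene Hist1h1c, expressed also outside S phase, had 405 and 370 CPM in libraries labelled CD28 KO, against 465 and 247 CPM in WT libraries, and overlapped with them (log2 fold change 0.12, adjusted p = 0.618). Hist1h1b, another linker histone gene, had 11.2 and 14.2 CPM, against 132 and 50.3 CPM, lower on the log2 scale at -2.85 (SE 0.30, adjusted p = 8.85e-08). In DKI cells Hist1h1c had 229, 243 and 243 CPM, all below both WT libraries, and fell as well, at -0.58 (adjusted p = 0.00963). Hist1h1c made up 65.3% of the H1 sum in cells labelled CD28 KO and 58.3% in DKI cells, against 36.2% in WT cells, 46.1% in unstimulated WT cells and 36.9% in Ars2 KO cells. The lowest fold changes in cells labelled CD28 KO were those of Hist1h2ah (-3.72), Hist1h2an (-3.26) and Hist2h3c2 (-3.15). Hist2h2be was the single member called higher under either label, with 19.9 and 15.6 CPM in libraries labelled CD28 KO and 10.3, 10.9 and 11.1 CPM in DKI libraries, against 3.997 and 6.357 CPM in WT libraries. Over WT it stood at 1.82 with the first label (SE 0.33, adjusted p = 8.88e-05) and at 1.10 in DKI cells (adjusted p = 0.0128). In DKI cells that call was lost against WT number 4 alone and with depth as a term, where 0 members were higher. It made up 7.72% and 5.01% of the H2B sum, against 0.751% in WT cells. Against unstimulated WT cells, 53 members fell in cells labelled CD28 KO (31.1% of all genes did) and 56 in DKI cells (27.5% did), and 0 rose in each.

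By group mean alone, CD28 AYAA cells (3151 CPM) lay between these and WT (4527 CPM) at day 1, and they were not apart from WT. All members summed to 2892, 3156 and 3405 CPM in CD28 AYAA libraries, all of them between the 2 WT libraries. The test called 12 members lower and 0 higher, where 2.0% of all genes fell and 1.61% rose, with a median of -0.69, and of the class sums it called H3 (-0.86, adjusted p = 0.0497). Against WT number 1 alone all 5 sums were called (-0.68 to -1.34), and against WT number 4 alone none was (0.05 to 0.52), so this difference too rests on WT number 1. Without CD28 AYAA number 1 or number 2, 0 members were called. Set beside the AYAA cells, Ars2 KO cells at day 1 had 55 members higher and 0 lower, where 5.41% and 4.06% of all genes were, with a median of 1.23 and class sums higher by 0.83 to 1.31 (adjusted p of 0.00458 or less). At day 3 Hist2h2be alone was higher (2.07, adjusted p = 4.64e-05) and 0 were lower, where 3.65% and 1.02% of all genes were. CD28 Y170F differed from WT in 0 members at either day, with 0 also at an unadjusted p under 0.05 and 0 by DESeq2 and limma-voom, where 0.0547% of all genes at day 1 and 0.0273% at day 3 differed. Against WT number 4 alone the median of the members at day 1 was 0.864, and against WT number 1 alone it was -0.426. The 95% intervals of the sums at day 1 reached from -0.465 (H3) to 0.589 (H1).

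At day 3 fewer members differed from WT than at day 1. All members summed to 10630 and 10820 CPM in libraries labelled CD28 KO, 12340, 12570 and 10570 CPM in DKI libraries and 13910, 14250 and 14400 CPM in CD28 AYAA libraries, against 17180 and 15610 CPM in WT libraries. All of these libraries lay below both WT libraries. At day 3, 15 members (24.6%) were lower in cells labelled CD28 KO, where 11.5% of all genes fell and 8.57% rose. In DKI cells 7 (11.5%) were lower, where 13.1% fell and 10.3% rose, and in CD28 AYAA cells 3 (4.92%), where 11.3% fell. The shares in DKI and CD28 AYAA cells were thus not above those of all genes. The medians were -0.64, -0.47 and -0.26, and 0 were higher in each. Against WT number 1 alone these medians were -0.67, -0.49 and -0.30, and against WT number 4 alone -0.60, -0.44 and -0.22. Fewer members were called in each comparison on leaving out any 1 library, and the share of all genes called there is not given. Hist3h2ba and Hist3h2a were among those called in all 3, with changes of -1.81 and -0.99 in cells labelled CD28 KO, -1.79 and -1.14 in DKI cells and -0.92 and -0.71 in CD28 AYAA cells. The 3 comparisons share their WT libraries. Of the class sums, H1 in cells labelled CD28 KO passed (-0.63, adjusted p = 0.0464), and this call was lost against WT number 4 alone (-0.47, adjusted p = 0.0614) and on leaving out any 1 of the 4 libraries (adjusted p from 0.0533 to 0.262). At day 3 against day 1, 57 members rose in cells labelled CD28 KO (25% of all genes did), 59 in DKI cells (23.7%), 59 in CD28 AYAA cells (21.7%) and 58, with 0 lower, in CD28 Y170F cells (21.1% of all genes rose and 19.2% fell), with medians of 3.33, 3.52, 2.39 and 1.70. The gain over the days exceeded that of WT in 41 members labelled CD28 KO and fell short of it in 3 (20.5% and 14.7% of all genes did), in 49 and 1 of DKI cells (17.7% and 14.7%) and in 1 and 1 of CD28 AYAA cells (12.3% and 12.1%). Between the days Hist2h2be alone fell, in cells labelled CD28 KO (-1.65), DKI (-0.95) and CD28 AYAA cells (-0.81).

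S phase genes were taken as a list without histones, and how well they follow replication in these cells was not tested. Their sum in WT libraries was 7551 and 4857 CPM at day 1 and 7985 and 5996 CPM at day 3. The histone sum went from 6407 and 2646 CPM to 17180 and 15610 CPM, so the 2 sums did not move alike. The 50 genes of this list, which encode replication enzymes and origin factors, had 0 members called in either direction in Ars2 KO cells against WT at day 1, with a median of -0.05, and 0 against CD28 Y170F, with a median of -0.003, where the histone medians were 0.47 and 0.42. At day 1 the ratio of the histone sum to the S phase sum was 1.157, 1.232 and 0.859 in Ars2 KO cells, against 0.838, 0.696 and 0.874 in CD28 Y170F libraries and 0.848 and 0.545 in WT libraries. The third Ars2 KO library overlaps with the CD28 Y170F range, so the ratios are not fully apart. A high ratio was not particular to Ars2 KO cells. It was 1.188 and 1.045 in libraries labelled CD28 KO at day 1 and 1.635 and 1.659 in unstimulated WT libraries. In DKI and CD28 AYAA libraries of day 1 it ran from 0.529 to 0.758. In cells labelled CD28 KO at day 1 all 50 S phase genes fell (median -2.26) and in DKI cells 49 did (median -1.38), beside histone medians of -2.03 and -2.20. In WT cells 49 of 50 had risen by day 1 (median 1.42 against day 0), and 16 of 61 histone genes had (26.2%), a share near the 24.2% of all genes that rose.

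Histone variant genes outside the replication-dependent clusters were taken as a further list, of which 10 of 11 were tested. H2afx in that list is known to make a hairpin-ended form as well, and it fell in cells labelled CD28 KO (-2.12) and in DKI cells (-2.16). In Ars2 KO cells at day 1 the median of the list was 0.46 over WT, with 0 called, and 0.50 over CD28 Y170F, with Cenpa, the centromeric H3, at 0.75 (adjusted p = 0.0118) and H2afj, an H2A variant, at 0.60 (adjusted p = 0.00218) called higher. At day 3 Cenpa (-0.59, adjusted p = 0.0241) and H2afy, the gene of macroH2A1 (-0.41, adjusted p = 0.00916), were lower than in WT. Of 30 tested genes for histone mRNA transcription and processing, Srrt alone was called at day 1 against both WT and CD28 Y170F. Slbp stood at -0.01 over WT (SE 0.20) with 154.5 ± 24.3 CPM in Ars2 KO cells and 154.9 ± 42.9 CPM in WT cells (SD, n = 3 and 2). At day 3, Gon4l, a cofactor of histone gene transcription (0.39), Ncbp2, the small cap-binding subunit (0.56), and Zc3h18, a partner of ARS2 (0.42), were higher than in WT, which is 3 of 30 where 6.6% of all genes rose. Against CD28 Y170F at day 3, 10 of these 30 and 7 of 20 histone chaperone and acetylation genes were higher and 1 of each list lower, where 15.4% of all genes rose and 13.8% fell. Of the chaperone and acetylation genes 0 were called at day 1, and at day 3 against WT Ipo4, an importin of new H3 and H4 (1.13), and Nap1l4, an H2A-H2B chaperone (0.24), were higher and Atrx, which deposits H3.3, lower (-0.28). The RNA of the U7 particle, Rnu7, was at 0 in all libraries.

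Across the 13 group means, 57 of 61 members followed the summed level with a Pearson correlation over 0.9, with a median of 0.989. This is a description over groups of unlike depth, with library totals of 8.35 to 47.76 M counts. Hist2h2be ran against it (-0.32), and Hist1h2bq (0.66), Hist2h3c1 (0.69) and Hist3h2ba (0.77) followed less closely; Hist1h2bq and Hist2h3c1 were near 0 in many libraries. Among 9434 other protein-coding genes, those with the most similar pattern were Kif23 and Nek2 (0.997 each), Cdca3, Iqgap3 and Cdc25c (0.996 each). Kif23 encodes a cytokinesis motor, Nek2 a centrosome kinase and Cdc25c a phosphatase that starts mitosis.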

How the data were processed

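RNA of 34 libraries in 13 groups was analysed from the deposited table of expected counts per gene, which the authors made from ribosome-depleted, random-primed, paired-end libraries. The submitters' processing notes name bcl2fastq 2.20, FastQC, STAR, RSEM, limma and the mouse builds mm10 and GRCm38; the strand setting of the counting is not given in the sources used here. Expected counts were rounded, and 48058 of 48526 gene IDs (99.04%) matched GENCODE M21. Library totals of 8.35 to 47.76 M counts set the precision. All groups were fitted together with edgeR 4.0.16 (TMM scaling, filterByExpr by group, quasi-likelihood F test, Benjamini-Hochberg adjustment over 18292 genes, threshold 0.05); the standard error is the log2 fold change divided by the square root of F. For class sums, the 61 genes were replaced by 5 sums. Intervals are approximate 95% intervals (1.96 SE), slightly narrower than the F test would give.

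The members and gene lists were chosen with earlier results of these data known. Genes named were Srrt; the called members with the smallest p, up to 6 per direction, in Ars2 KO against WT and CD28 Y170F; the 3 highest and 3 lowest members in WT day 1 against unstimulated WT; those beside the 0.5 CPM minimum; up to 4 per list; and the 5 most alike in pattern. Cd28, Hist1h1b, Hist1h1c, Hist1h2bc, Hist3h2a and others named beside them were picked with their values in view. The alternatives tried were other scaling, no filter, DESeq2 1.42.0, limma-voom 3.58.1, only the groups compared, each WT number alone, depth (under 12 M counts) as a term, a replicate block and each library left out. Tested on simulated data for Ars2 KO against WT at day 1 (17177 genes), the fit recovered 42 of 50 genes changed by 1 on the log2 scale in each direction and 50 of 50 changed by 2, with 7 false calls. How this recovery and the false calls depend on the difference between the WT libraries of day 1 was not tested. Same-numbered libraries deviated together in CD28 AYAA day 3 against day 1 (correlations of 0.276 to 0.639), the 1 comparison where every pair passed 0.1. The day 3 columns labelled CD28 KO were matched to their group only.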

Additional observations from a re-analysis of the deposited data

Results flagged for a closer look

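The change between days differed from that in WT, by a test of the difference itself (effect against WT at day 3 minus effect at day 1, log2 scale), in 3 class sums of cells labelled CD28 KO: H2B by 1.27 (edgeR quasi-likelihood test, adjusted p = 0.00906), H3 by 1.67 (adjusted p = 0.00162) and H4 by 0.93 (adjusted p = 0.0474). In DKI cells all 5 class sums differed: H1 by 0.84 (adjusted p = 0.0252), H2A by 1.19 (adjusted p = 0.00565), H2B by 1.67 (adjusted p = 0.000574), H3 by 1.94 (adjusted p = 0.00023) and H4 by 1.25 (adjusted p = 0.00488). Against WT number 4 alone, 0 of the 5 sums passed in cells labelled CD28 KO and 2 in DKI cells.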

How the results depend on the processing

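Counts of members called moved with the fit. Outside the main fit and some Ars2 KO comparisons with each WT number alone, the share of all genes called is not given. The counts below therefore show how the calls moved, and not whether members moved more than other genes. By DESeq2, Ars2 KO against WT at day 1 gave 6 and CD28 AYAA against WT at day 1 gave 32; by limma-voom, CD28 AYAA at day 1 gave 1, and Ars2 KO at day 3 gave 5 against CD28 Y170F and 2 against CD28 AYAA. Without the filter, Ars2 KO gave 7 (day 1) and 3 (day 3) against WT and 10 and 5 against CD28 Y170F, the CD28 KO label 31 and DKI 22 at day 3, and CD28 AYAA 41 at day 1. With only the groups compared in the fit, Ars2 KO gave 0 and 0 against WT, 2 and 0 against CD28 Y170F and 0 against CD28 AYAA at day 3; CD28 AYAA gave 0 and 18, the CD28 KO label 46 and DKI 42 at day 3, and WT day 1 against day 0 gave 8. With depth as a term, day 3 counts were 13 (Ars2 KO), 46 (CD28 KO label), 4 (DKI) and 7 (CD28 AYAA), CD28 AYAA gave 47 at day 1, and the Ars2 KO sums at day 3 passed for H1 (-0.68) and H2A (-0.80). That term rests on WT number 4 against number 1 over both days, as every DKI library lay under 12 M counts.

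Against WT number 1 alone, Ars2 KO at day 1 gave 0 members and sums of -0.087 (H2A), -0.054 (H3) and -0.032 (H4), and CD28 AYAA gave 52 and 1 at days 1 and 3. Against WT number 4 alone, Ars2 KO gave 43 and 2, DKI 11 at day 3, and at day 1 CD28 AYAA 1 and CD28 Y170F 5; Ars2 KO sums were 1.33, 1.19, 1.37, 1.33 and 1.27 (H1 to H4), and those of CD28 AYAA turned to 0.52, 0.18, 0.18, 0.051 and 0.23. For the day 3 effect minus the day 1 effect, H1 of the CD28 KO label turned to -0.45. Class sums passing that test against WT number 4 alone were 5 (Ars2 KO), 0 (CD28 KO label) and 2 (DKI); CD28 AYAA had 1 against WT number 1 alone. For Ars2 KO they were 1 by DESeq2, 1 by limma-voom, 3 with depth as a term and 4 without the filter. The cause of these shifts was not tested.

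The replicate block, whose numbers do not pair these groups, gave 0 members for Ars2 KO against CD28 Y170F at day 1 and at day 3 and 0 against CD28 AYAA at day 3; in CD28 AYAA day 3 against day 1, where numbers pair, the count stayed within 1.5 times.

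Leaving out 1 library at a time, members called ranged from 0 to 43 (Ars2 KO against WT, day 1), 0 to 2 (day 3), 1 to 4 (against CD28 Y170F, day 3), 2 to 6 (CD28 KO label, day 3), 3 to 5 (DKI, day 3), 0 to 52 and 0 to 2 (CD28 AYAA, days 1 and 3), 0 to 6 and 0 to 1 (CD28 Y170F) and 11 to 43 (WT day 1 against day 0). Sums for H1, H2A, H2B, H3 and H4 ranged from 0.088 to 1.33, -0.13 to 1.19, 0.004 to 1.37, -0.092 to 1.33 and -0.07 to 1.27 (Ars2 KO against WT, day 1), from -0.72 to 0.52, -1.14 to 0.18, -1.18 to 0.18, -1.37 to 0.051 and -1.11 to 0.23 (CD28 AYAA, day 1) and from -0.55 to 0.70, -0.57 to 0.75, -0.49 to 0.87, -0.66 to 0.77 and -0.30 to 1.04 (WT day 1 against day 0). H2B, H3 and H4 in Ars2 KO against CD28 Y170F at day 3 ranged from -0.34 to 0.024, -0.39 to 0.02 and -0.29 to 0.11. For the day 3 effect minus the day 1 effect, H1 of the CD28 KO label ranged from -0.62 to 0.62, and class sums called from 0 to 5 (Ars2 KO), 1 to 5 (CD28 KO label), 2 to 5 (DKI) and 0 to 4 (CD28 AYAA). The extremes of Ars2 KO against WT at day 1 came from leaving out WT number 1 (43) and WT number 4 (0).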
